A study of Mus musculus with 7 samples.

Results

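The extracellular ATP and adenosine pathway was followed through 9 genes that were set by symbol. Entpd1, Nt5e and Cd38 stood for ectoenzymes, Ada for the removal of adenosine and Dpp4 for the surface peptidase CD26. Adora2a and Adora2b stood for adenosine receptors, and P2rx4 and P2rx7 for ATP-gated channels. Each symbol had 1 entry among the 19736 gene entries of every library, and all 9 passed the filter on low values, which kept 14582 genes, those with 10 or more normalised counts in 3 or more libraries. RNA-seq was made from 2 groups of regulatory T (Treg) cells sorted from total lung digests, 3 libraries of CCR6+ Foxp3EGFP+ Il4raR576 cells and 4 libraries of CCR6- Foxp3EGFP+ Il4raR576 cells. All came from female mice of 5 to 7 weeks with the R576 allele of Il4ra, the gene of the interleukin-4 receptor alpha chain, and with EGFP reporting Foxp3. Both groups share this allele, so its own effect is not compared. The mice were sensitised to ovalbumin with 100 µg by injection, boosted after 2 weeks, given an aerosol of 1% ovalbumin for 30 min daily over 3 days from day 29, and examined at day 32. Nothing states whether each library is 1 mouse or a pool, so a p-value here covers the variation among libraries, part or all of which may be technical.

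ATP that leaves stressed or dying cells acts as a danger signal on P2X channels and P2Y receptors. CD39, encoded by Entpd1, cuts ATP and ADP to AMP, and CD73, encoded by Nt5e, cuts AMP to adenosine, which acts on the A2A and A2B receptors to raise cAMP and dampen T cells. Adenosine is removed by deamination to inosine through adenosine deaminase or by phosphorylation inside the cell through adenosine kinase. Mouse Treg cells are known to carry both CD39 and CD73, and mouse T cells are known to die when NAD feeds the modification of P2X7 by the ART2 enzyme, while CD38 consumes NAD.

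The sort was read first. Ccr6 stood at 7309, 2750 and 6406 normalised counts in CCR6+ libraries, against 909, 851, 439 and 271 in CCR6- libraries, with no overlap. Foxp3 lay between 12206 and 50875 in CCR6+ libraries and between 19376 and 39097 in CCR6- libraries. The 7 Treg and T cell markers found were present in every library, with a summed level of 94578 to 257658 in CCR6+ and 144298 to 196041 in CCR6- libraries. The libraries held 11607780 to 47261246 whole reads. One library, CCR6+ replicate 2, differed from the rest in its reads, which were the fewest, in having 2.16% of genes at 0 against 6.89% to 29.7% in the others, in the lowest sum of Treg and T cell markers, and in the highest sums of all other marker lists except that of B cells. Results that rest on it are therefore given with and without it. The summed dendritic cell markers separated the groups with and without it, at 984, 5346 and 1194 in CCR6+ libraries, against 518, 485, 491 and 487 in CCR6- libraries. Gene by gene that list was split, since Flt3, Cd209a and Zbtb46 did not overlap between the groups and Xcr1 and Clec9a did. In bulk samples such as these, fewer cells of a type and less RNA per cell cannot be told apart.

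**Figure D1:**
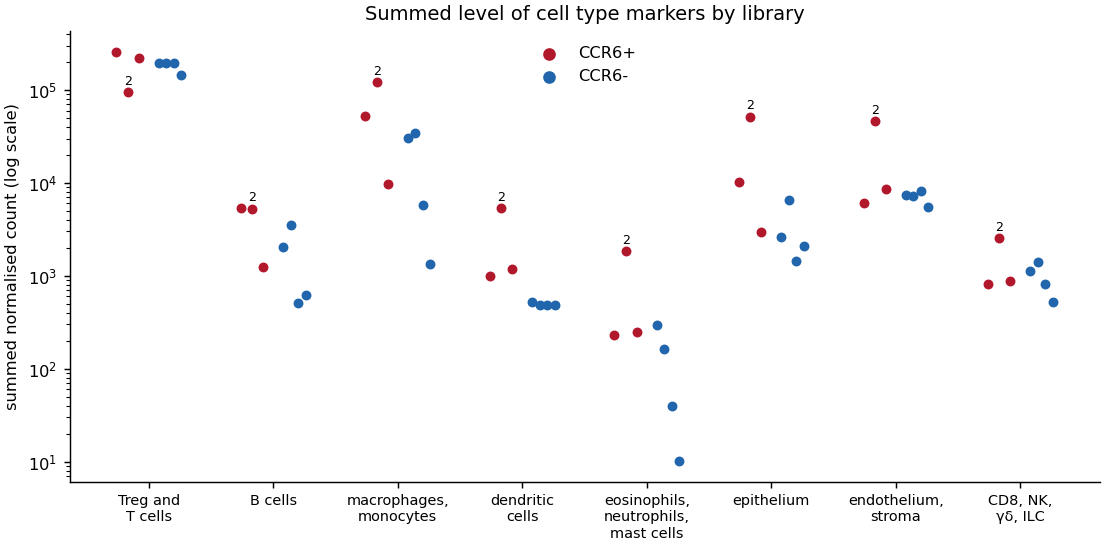
Summed normalised counts of 8 marker lists (log scale) in each library, CCR6+ in red and CCR6- in blue, 1 point per library with CCR6+ replicate 2 marked by its number. That library had the lowest sum of Treg and T cell markers, 94578, and the highest sum of macrophage and monocyte markers, 121112.

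The libraries of the 2 groups did not overlap for 4 members, Entpd1, Cd38 and P2rx7, all higher in CCR6+ cells, and Ada, lower in CCR6+ cells. Over all genes tested this held for 13.5%, 7.96% higher and 5.53% lower. Upstream sequences of Entpd1, P2rx7 and Ada are shown because the first and second each have alternative starts that a value per gene symbol cannot tell apart, and because Ada was the member lower in CCR6+ cells. RefSeq promoter windows on GRCm38.p6 were found for 8 of the 9 members, and the 250 bases before the start are printed from 5′ to 3′ on the gene's strand. Capitals mark matches, on either strand, to a CRE half-site (TGACG), a ROR half-site (AGGTCA), an XRE core (GCGTG), a STAT motif (TTCNNNGAA), a forkhead motif (TGTTTAC) or an SP1 box (GGGCGG).
Entpd1 at chr19:40612116-40612365, plus strand: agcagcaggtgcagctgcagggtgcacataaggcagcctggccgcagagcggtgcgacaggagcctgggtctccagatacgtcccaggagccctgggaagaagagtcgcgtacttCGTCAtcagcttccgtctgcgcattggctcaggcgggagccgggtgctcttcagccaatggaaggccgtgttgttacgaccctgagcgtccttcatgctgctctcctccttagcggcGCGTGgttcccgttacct
Entpd1 at chr19:40659520-40659769, plus strand: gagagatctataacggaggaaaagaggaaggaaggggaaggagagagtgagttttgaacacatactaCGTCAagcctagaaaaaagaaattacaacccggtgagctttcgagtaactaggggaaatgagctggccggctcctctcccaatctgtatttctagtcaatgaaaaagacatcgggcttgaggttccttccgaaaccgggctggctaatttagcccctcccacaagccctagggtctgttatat
P2rx7 at chr5:122643677-122643926, plus strand: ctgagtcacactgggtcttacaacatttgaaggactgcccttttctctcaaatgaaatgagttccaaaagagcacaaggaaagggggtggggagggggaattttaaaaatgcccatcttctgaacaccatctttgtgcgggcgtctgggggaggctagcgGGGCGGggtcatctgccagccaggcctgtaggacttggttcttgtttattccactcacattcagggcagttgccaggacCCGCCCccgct
P2rx7 at chr5:122650133-122650382, plus strand: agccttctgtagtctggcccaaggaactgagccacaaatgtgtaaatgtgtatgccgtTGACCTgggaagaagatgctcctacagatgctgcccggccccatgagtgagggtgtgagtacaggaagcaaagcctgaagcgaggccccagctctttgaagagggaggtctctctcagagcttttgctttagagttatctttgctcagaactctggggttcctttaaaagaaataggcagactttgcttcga
Ada at chr2:163750240-163750489, minus strand: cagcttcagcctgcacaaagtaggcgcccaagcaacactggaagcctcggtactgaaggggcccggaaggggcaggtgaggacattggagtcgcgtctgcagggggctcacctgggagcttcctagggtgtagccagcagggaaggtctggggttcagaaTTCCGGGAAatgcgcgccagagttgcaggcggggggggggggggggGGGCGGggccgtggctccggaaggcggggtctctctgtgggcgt
Both Entpd1 windows hold a CRE half-site, from 135 to 131 bases before the upstream start and beginning 183 bases before the downstream one, and the upstream window also holds an XRE core 18 to 14 bases before its start. Of the P2rx7 windows, the upstream one holds 2 SP1 boxes and the downstream one, inside the gene, a ROR half-site. A P2X7 isoform with another first exon is known from mouse T cells. The Ada window holds a STAT motif 90 to 82 bases and an SP1 box 44 to 39 bases before the start. No printed match overlaps another, and no window of these 5 holds the forkhead motif. Among 32851 windows of the same length over all genes, 17.8% held the CRE half-site, 14% the ROR half-site, 28.2% the XRE core, 7.02% the STAT motif, 3.17% the forkhead motif and 32.7% the SP1 box, so each match is a description of these letters and nothing more.

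The series is titled for TH17 cell-like Treg cells, and the comparison asks how the CCR6+ fraction differs from the CCR6- fraction in this pathway. No member passed limma with Benjamini-Hochberg adjustment over all 14582 genes, where 0 genes (0%) passed. At an unadjusted p under 0.05, 2 members, Cd38 and P2rx7, stood beside 10.6% of all genes. EdgeR on the recovered reads called 0 members beside 0.0137% of all genes, and DESeq2 called 2, Cd38 and P2rx7, both higher, beside 4.55% in either direction and 3.63% higher. Without CCR6+ replicate 2, edgeR called 0 members beside 0.0151% of all genes, each of these higher, and DESeq2 called 2, Nt5e and P2rx7, both higher, beside 1.37% in either direction and 0.784% higher. The count of 4 non-overlapping members of 9, against 13.5% of all genes, depended on the scaling. With TMM scaling it was 3 beside 14.1% of all genes, Entpd1 overlapping. Scaled to the Treg and T cell markers it was 3 beside 5.17%, with Entpd1 and Ada overlapping and Nt5e apart. Without CCR6+ replicate 2 it held for 5 of 9, Nt5e being the fifth, beside 20.3% of all genes, 10.9% higher and 9.43% lower. The median log2 difference of the members was 0.38, against 0.097 over all genes tested. Log2 differences throughout are those of limma on log2(value + 1), taken as CCR6+ minus CCR6-, with their standard error (SE), and levels are normalised counts as mean ± SD.

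**Figure D2:**
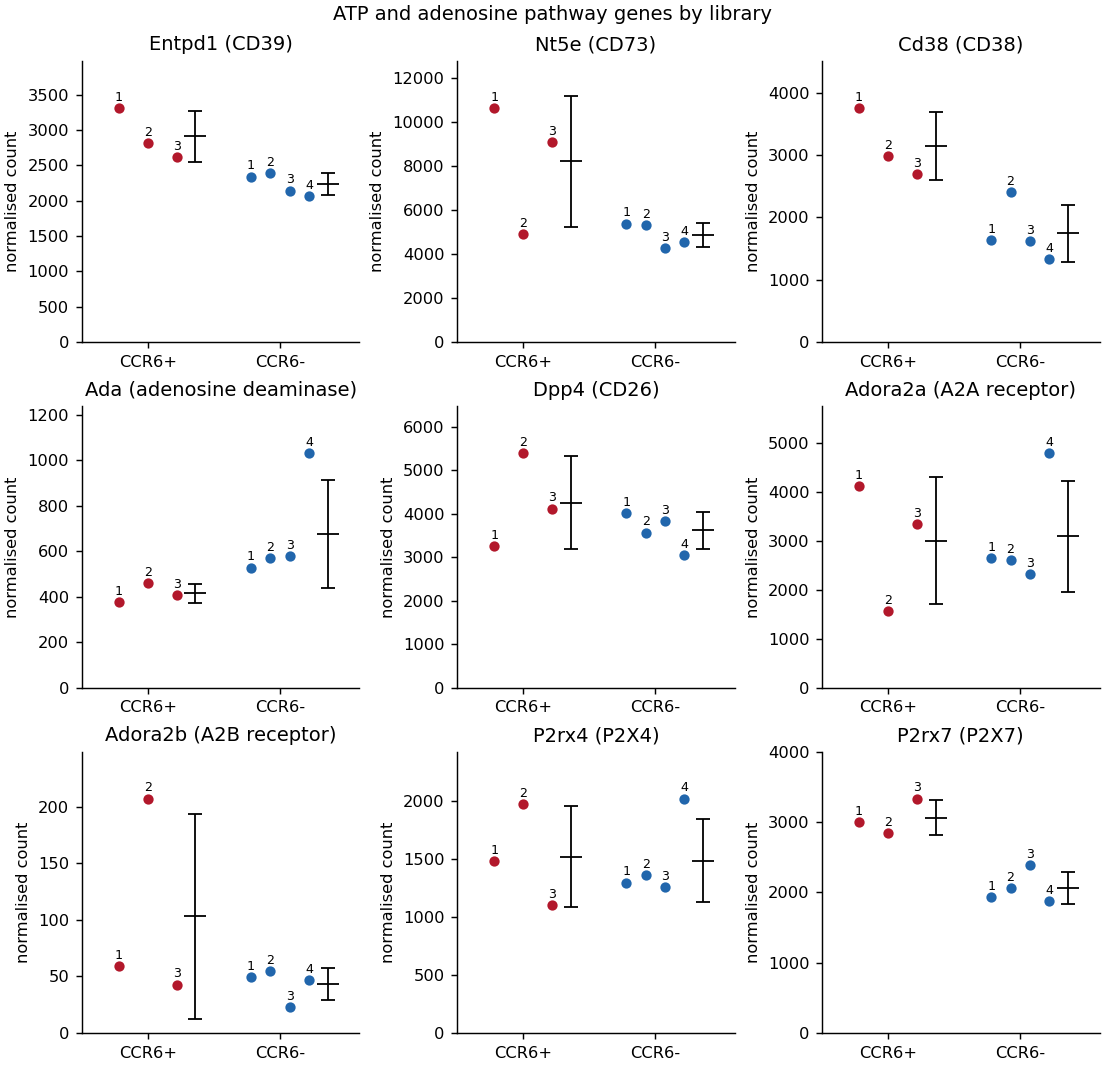
Normalised counts of the 9 members, 1 point per library with its replicate number, CCR6+ (n = 3) left of CCR6- (n = 4), and the mean ± SD as a black bar beside the points. The groups are apart for Entpd1, Cd38, P2rx7 and Ada, and CCR6+ replicate 2 is the lowest CCR6+ library for Nt5e at 4900 and the highest of all for Adora2b at 207.

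Among the ectoenzymes, Entpd1 had 3315, 2812 and 2619 normalised counts in CCR6+ libraries, against 2342, 2396, 2145 and 2068 in CCR6- libraries. The lowest CCR6+ library lay above the highest CCR6- library, but the distance between them was small. The group means were 2915 ± 359 (n = 3) and 2238 ± 156 (n = 4), 1.30-fold, with a log2 difference of 0.38 (SE 0.16, limma adjusted p = 0.474). Entpd1 lies on mm10 chromosome 19 from 40612366 to 40741602 and is protein coding, with 4348 exonic bases.

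Nt5e, for the enzyme that makes adenosine from AMP, had 10625, 4900 and 9074 normalised counts in CCR6+ libraries, against 5373, 5310, 4253 and 4531 in CCR6- libraries. CCR6+ replicates 1 and 3 were far above all CCR6- libraries, and CCR6+ replicate 2 lay among them. The log2 difference was 0.69 (SE 0.30, limma adjusted p = 0.478) with all libraries and 1.02 (SE 0.19, limma adjusted p = 0.345) without that library. DESeq2 gave an adjusted p of 0.0852 with all libraries and 5.84e-06 without CCR6+ replicate 2, and edgeR without that library gave 0.168. In that library the sum of Treg and T cell markers was 94578, against 220492 and 257658 in the other CCR6+ libraries; its part in the low Nt5e value was not tested. The gene lies on chromosome 9 from 88327197 to 88372092.

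Cd38, for an enzyme that breaks down NAD and makes cyclic ADP-ribose, had 3754, 2987 and 2689 normalised counts in CCR6+ libraries, against 1630, 2400, 1624 and 1335 in CCR6- libraries. Every CCR6+ library was above every CCR6- library, of which replicate 2 came nearest. The means, 3143 ± 550 (n = 3) and 1747 ± 456 (n = 4), differed 1.80-fold, with a log2 difference of 0.87 (SE 0.25, limma adjusted p = 0.435). By DESeq2 it was called over the 7 libraries at an adjusted p of 0.0312, and not when CCR6+ replicate 2 was left out, at 0.0834. CD38 is also known from B cells, whose 7 markers summed to 5349, 5271 and 1254 in CCR6+ libraries, against 2049, 3524, 506 and 623 in CCR6- libraries. Those sums overlapped between the groups, and their part in the Cd38 difference was not tested. Cd38 lies on chromosome 5 from 43868553 to 43912375.

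Ada, which encodes adenosine deaminase, had 375, 459 and 407 normalised counts in CCR6+ libraries, against 528, 568, 578 and 1030 in CCR6- libraries. It was lower in all CCR6+ libraries, and CCR6- replicate 4 was far above the other CCR6- libraries. The means of 414 ± 42.8 (n = 3) and 676 ± 237 (n = 4) gave a log2 difference of -0.66 (SE 0.28, limma adjusted p = 0.473). Without CCR6- replicate 4 the log2 difference was -0.44 (limma adjusted p = 0.693) and the groups still did not overlap. Ada lies on chromosome 2 from 163726584 to 163750239, on the minus strand.

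Dpp4, whose product CD26 is a surface peptidase that docks adenosine deaminase in humans, had 3261, 5387 and 4117 normalised counts in CCR6+ libraries, against 4018, 3561, 3824 and 3046 in CCR6- libraries. The groups overlapped, and the highest value was that of CCR6+ replicate 2. Its log2 difference was 0.21 (SE 0.22, limma adjusted p = 0.656) with all libraries and 0.028 without that one. Dpp4 lies on chromosome 2 from 62330073 to 62412231, on the minus strand.

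Within each library the level of an ectoenzyme can be set against that of adenosine deaminase without any scaling between libraries. These ratios were chosen after the values were seen and carry no test. Per kilobase of exonic sequence, the level of Nt5e over that of Ada was 12, 4.51 and 9.42 in CCR6+ libraries, against 4.30, 3.95, 3.11 and 1.86 in CCR6- libraries. CCR6+ replicate 2 lay only just above the highest CCR6- library. For Entpd1 over Ada the ratios were 3.44, 2.38 and 2.5 in CCR6+ libraries, against 1.72, 1.64, 1.44 and 0.780 in CCR6- libraries. Those of Cd38 over Ada were 5.17, 3.36 and 3.41 in CCR6+ libraries, against 1.59, 2.18, 1.45 and 0.669 in CCR6- libraries. The ratios did not overlap between the groups, and CCR6- replicate 4, with its high Ada, was the lowest for each. For Entpd1 and Cd38 this had to follow, since both were higher and Ada lower in every CCR6+ library. Between ectoenzymes, Cd38 over Entpd1 was 1.51, 1.41 and 1.37 in CCR6+ libraries, against 0.925, 1.33, 1.01 and 0.858 in CCR6- libraries, without overlap. Nt5e over Entpd1 ranged from 1.90 to 3.77 in CCR6+ libraries and from 2.16 to 2.5 in CCR6- libraries, with overlap.

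**Figure D3:**
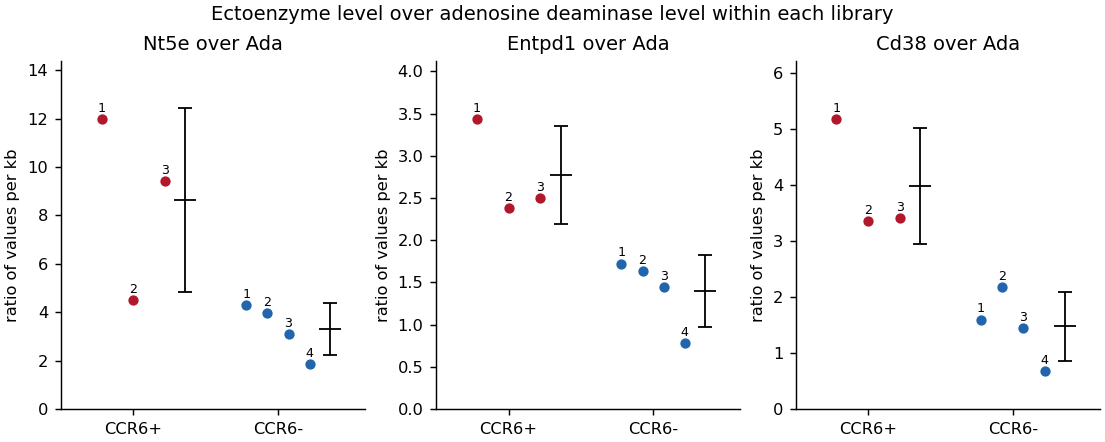
Level of Nt5e, Entpd1 and Cd38 over that of Ada within each library, each level per kilobase of exonic sequence, 1 point per library with its replicate number, CCR6+ (n = 3) left of CCR6- (n = 4), and mean ± SD in black. CCR6+ libraries lie above CCR6- libraries in all panels, by the smallest distance for Nt5e, at 4.51 in CCR6+ replicate 2 and 4.30 in CCR6- replicate 1.

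Neither adenosine receptor gene separated the groups. Adora2a, for the high-affinity A2A receptor, had 4107, 1565 and 3329 normalised counts in CCR6+ libraries, against 2643, 2603, 2320 and 4782 in CCR6- libraries. The lowest value was that of CCR6+ replicate 2 and the highest that of CCR6- replicate 4. Its log2 difference of -0.09 (SE 0.42, limma adjusted p = 0.925) was 0.32 without CCR6+ replicate 2 and 0.14 without CCR6- replicate 4, and therefore had no stable sign. Adora2a lies on chromosome 10 from 75316877 to 75334784.

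Adora2b, for the A2B receptor of lower affinity, had 59.3, 207 and 42.6 normalised counts in CCR6+ libraries, against 49.2, 54.7, 23.0 and 46.7 in CCR6- libraries. These values rest on 25 to 91 reads per library, whereas every other member had at least 202. CCR6+ replicate 2 was far above the rest, and the other CCR6+ libraries lay near the CCR6- libraries. The log2 difference was 0.95 (SE 0.60, limma adjusted p = 0.547) with all libraries, 0.28 without CCR6+ replicate 2, and -0.65 with quantile normalization. Macrophages and monocytes are known to express Adora2b, and their 8 markers summed to 52347, 121112 and 9826 in CCR6+ libraries, against 30440, 34344, 5733 and 1331 in CCR6- libraries. CCR6+ replicate 2 was thus the highest for both. It was also the highest for every other marker list but those of B cells and of Treg and T cells. The part of any of these cells in the Adora2b value was not tested. Adora2b lies on chromosome 11 from 62248984 to 62266453.

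The genes of the ATP-gated channels P2X7 and P2X4 are neighbours on chromosome 5, with 16111 bases between them, and differed in pattern. P2rx7, for the channel that opens at high ATP, had 3008, 2846 and 3336 normalised counts in CCR6+ libraries, against 1929, 2058, 2392 and 1879 in CCR6- libraries. The groups were apart, and the 3 CCR6+ libraries lay close together, CCR6+ replicate 2 included. The means of 3063 ± 250 (n = 3) and 2065 ± 231 (n = 4) differed 1.48-fold, with a log2 difference of 0.57 (SE 0.16, limma adjusted p = 0.435). By DESeq2 it was called at an adjusted p of 0.0118 over the 7 libraries and of 0.0444 when CCR6+ replicate 2 was left out, while edgeR gave 0.314 over the 7 libraries. Macrophages are also known to express P2rx7, Entpd1 and P2rx4. All 8 macrophage and monocyte markers had a higher mean in CCR6+ libraries, though their sums, given above for Adora2b, overlapped. This was not particular to those cells. Every marker of B cells, of dendritic cells, of eosinophils, neutrophils and mast cells, of epithelium, and of endothelium and stroma also had a higher mean there. The dendritic cell marker sums, 984 to 5346 in CCR6+ and 485 to 518 in CCR6- libraries, did not overlap, like P2rx7, Entpd1 and Cd38. The part of any of these cell types in these genes was not tested. P2rx7 is annotated from 122643911 to 122691432, with 5 transcripts in the basic set, and 2.15% of its exonic bases overlap a microRNA gene.

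P2rx4, for a channel that opens at lower ATP, had 1479, 1972 and 1100 normalised counts in CCR6+ libraries, against 1294, 1361, 1255 and 2016 in CCR6- libraries. The groups overlapped, with CCR6+ replicate 3 the lowest of all libraries and CCR6- replicate 4 the highest. CCR6+ replicate 2 and CCR6- replicate 4 were the highest of their groups, and the remaining libraries overlapped without them too. The log2 difference was 0.022 (SE 0.28, limma adjusted p = 0.973) and was -0.19 without CCR6+ replicate 2. P2rx4 lies from 122707544 to 122729738.

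**Figure D4:**
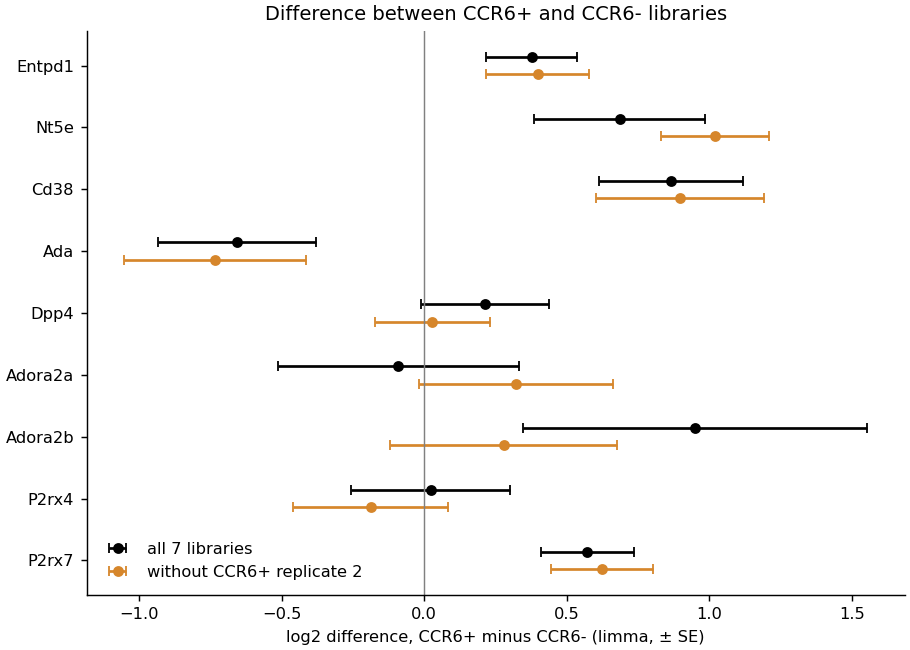
Log2 difference of the 9 members, CCR6+ minus CCR6-, with the SE from limma, for all 7 libraries (black) and without CCR6+ replicate 2 (orange). Without that library Nt5e stands at 1.02 and Adora2b at 0.28.

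Levels of different genes were compared per kilobase of exonic sequence. Averaged over the 7 libraries, the order was Nt5e at 1576 normalised counts per kilobase, Adora2a at 1175, Dpp4 at 738, Cd38 at 717, Entpd1 at 581, P2rx4 at 554, P2rx7 at 451, Ada at 334 and Adora2b at 37.4. Nt5e was the highest in 6 libraries, and in CCR6- replicate 4 Adora2a stood above it. Only the last step held in all 7 libraries, where Adora2b was below Ada, and every other pair of neighbours changed places in at least 1 library. Dpp4 was above Cd38 in 1 of 3 CCR6+ and in 3 of 4 CCR6- libraries. Of the 19136 genes with a length, 8.47% lay above Nt5e and 50.6% above Adora2b in the median library.

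Further genes of the pathway came from a list of 50, of which 49 were found and 42 tested. Limma called 0 of them, as of all genes, edgeR 0 beside 0.0137% of all genes, and DESeq2 1 beside 4.55%. An unadjusted limma p under 0.05 was found for 5 of the 42, 3 with a positive and 2 with a negative difference, beside 10.6% of all genes. The groups did not overlap for 6 of the 42, 4 higher and 2 lower, beside 13.5% of all genes. These shares are near those of all genes. Over the 42 genes the log2 differences had a median of 0.23, against 0.097 over all genes.

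Acpp, which encodes prostatic acid phosphatase, an enzyme shown in mouse sensory neurons to make adenosine from AMP, had the smallest p of the list. It had 666, 1008 and 590 normalised counts in CCR6+ libraries, against 318, 219, 303 and 296 in CCR6- libraries. The groups were far apart, by 2.66-fold in their means, with a log2 difference of 1.38 (SE 0.25, limma adjusted p = 0.302). Its DESeq2 adjusted p was 0.00119 over the 7 libraries and 0.00908 when CCR6+ replicate 2 was left out. The edgeR adjusted p was 0.249 and 0.222 in the same order, so edgeR did not call it. Of the other ectoenzymes, Enpp1, which makes AMP from ATP, stood at 1106 ± 106 in CCR6+ libraries (n = 3) and 948 ± 98.6 in CCR6- libraries (n = 4). Alpl, for alkaline phosphatase, stood at 601 ± 239 in CCR6+ and 471 ± 131 in CCR6- libraries, with a log2 difference of 0.32, and of 0.015 without CCR6+ replicate 2. Enpp3 had 5.15, 189 and 44.7 normalised counts in CCR6+ libraries and 6.62, 3.31, 16.6 and 0 in CCR6- libraries. Without CCR6+ replicate 2 it no longer passed the filter. Art2b, for the enzyme that modifies P2X7 with NAD, had 304, 68.2 and 228 in CCR6+ libraries, against 336, 543, 315 and 228 in CCR6- libraries. Its reads may be shared with a related gene, which was not tested.

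Inside the cell, adenosine is taken up and used. Adk, for adenosine kinase, had 5291, 4529 and 5140 normalised counts in CCR6+ libraries, against 6281, 8814, 5825 and 8349 in CCR6- libraries. Like Ada, it was lower in every CCR6+ library, with a log2 difference of -0.53 (SE 0.21, limma adjusted p = 0.469). Slc29a2, for an equilibrative nucleoside transporter, had 161, 162 and 137 in CCR6+ libraries, against 62.4, 58.0, 69.0 and 98.8 in CCR6- libraries. It was higher in every CCR6+ library, with a log2 difference of 1.10 (SE 0.23, limma adjusted p = 0.371), but of -0.39 with quantile normalization. The more abundant transporter genes Slc29a1 and Slc28a2 had log2 differences of -0.21 and -0.16, the second 0.14 without CCR6+ replicate 2, and their groups overlapped. Of the ATP release genes, Slc17a9, for the vesicular nucleotide transporter, had 1181, 705 and 1013 in CCR6+ libraries, against 1247, 1572, 1452 and 2353 in CCR6- libraries. It did not overlap between the groups, with a log2 difference of -0.77 (SE 0.29, limma adjusted p = 0.466). Panx1, for the pannexin-1 channel, stood at 3559 ± 1427 in CCR6+ and 4576 ± 360 in CCR6- libraries and overlapped, with a log2 difference of -0.44, and of -0.15 without CCR6+ replicate 2.

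All 7 genes of P2Y receptors, which sense ATP, ADP, UTP, UDP or UDP-sugars, were tested and had positive log2 differences with a median of 1.99. Over all genes, 8294 of the 14582 tested had a positive difference. None passed, and all 7 had their highest value in CCR6+ replicate 2, as did 6360 of the 14582 genes tested. P2ry14, the most abundant, had 176, 1124 and 142 normalised counts in CCR6+ libraries, against 164, 163, 205 and 96.1 in CCR6- libraries. P2ry13 had 16.3, 125 and 41.6 in CCR6+ libraries, against 8.51, 0, 3.68 and 0 in CCR6- libraries, with no overlap. P2ry6 did not overlap either, at 67.0, 580 and 59.9 in CCR6+ libraries and 53.0, 38.9, 16.6 and 0 in CCR6- libraries. P2ry1 and P2ry12 had log2 differences of 1.99 and 2.78 and overlapped. Without CCR6+ replicate 2 the log2 differences were 0.062 for P2ry14, 2.21 for P2ry6, 1.06 for P2ry1 and 1.93 for P2ry12. P2ry13 and P2ry4 then no longer passed the filter. P2ry2 had 16.3 and 22.3 in CCR6+ replicates 1 and 3, within the 9.46, 44.7, 18.4 and 29.8 of CCR6- libraries. Both P2ry6 and P2ry12 were at 0 in CCR6- replicate 4, a value that weighs heavily on the log scale. P2ry12 had 24.9 and 25.4 in CCR6+ replicates 1 and 3, against 12.3, 29.0, 4.60 and 0 in CCR6- libraries. The log2 difference of P2ry14 was -0.094 with library weights from limma's arrayWeights. Several of these receptors are known from macrophages and dendritic cells, whose marker sums are given above. Whether those cells bear on the P2Y values was not tested. Among the other P2X genes only P2rx1 and P2rx5 passed the filter, with log2 differences of 2.39 and -0.46. Their highest values, 111 and 109 normalised counts, were those of CCR6+ replicate 2, and without that library neither gene passed the filter. The adenosine receptor genes Adora1 and Adora3 did not pass it with all libraries.

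The 15 genes of cAMP signalling, which lies below both adenosine receptors, overlapped between the groups in every case, with 7 positive and 8 negative log2 differences and a median of -0.0059. Over all genes tested, 13.5% did not overlap, 8294 of 14582 had a positive difference, and the median was 0.097. Prkar1a, for a regulatory subunit of protein kinase A, had the highest level of the list, at 32822 ± 7647 in CCR6+ (n = 3) and 36028 ± 5185 in CCR6- libraries (n = 4). Pde4b, a phosphodiesterase gene, stood at 12223 ± 1660 and 8968 ± 1679 in CCR6+ and CCR6- libraries, with a log2 difference of 0.46 (SE 0.22, limma adjusted p = 0.488). Adcy7, for an adenylyl cyclase, had a log2 difference of 0.20 and did not pass. Pde4a, another phosphodiesterase gene, had 161, 464 and 247 normalised counts in CCR6+ libraries, against 132, 135, 180 and 248 in CCR6- libraries. Its log2 difference was 0.65, and 0.24 without CCR6+ replicate 2, which held the highest value. That of Prkar1a was -0.15, and 0.036 without the same library.

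**Figure D5:**
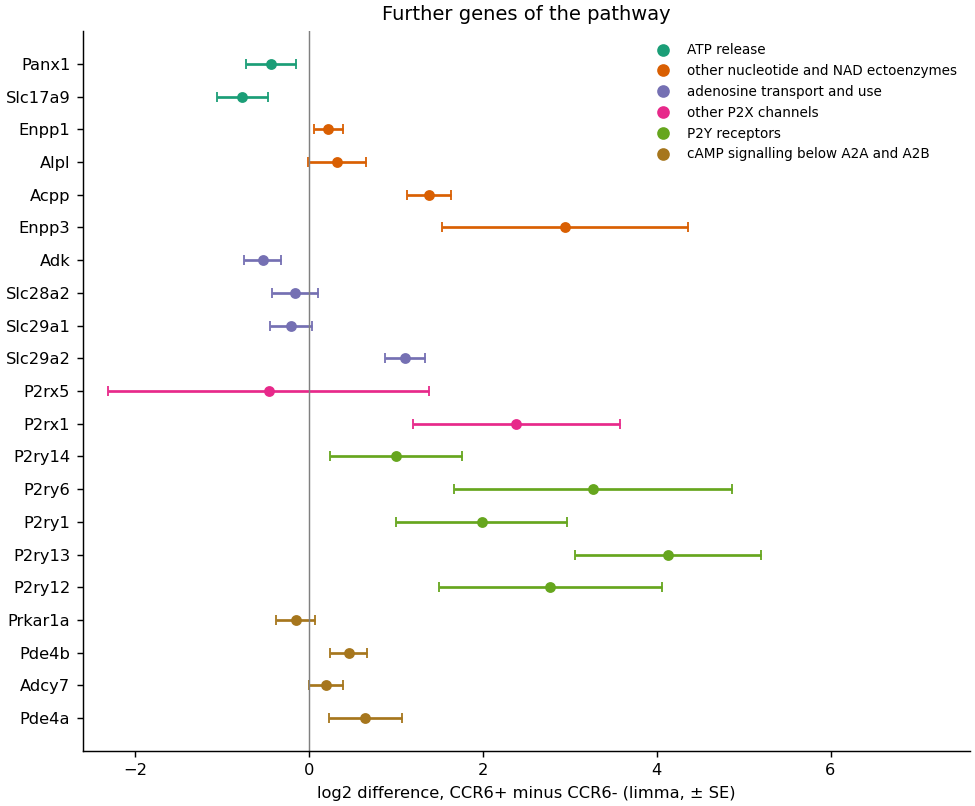
Log2 difference, CCR6+ minus CCR6-, with the SE from limma, for the named further genes of the pathway, coloured by list. Acpp at 1.38 has a short error bar among the positive values, Slc17a9 at -0.77 and Adk at -0.53 are negative, and the P2Y receptor genes have wide error bars.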

How the data were processed

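RNA-seq libraries were made from sorted lung Treg cells with a SMART-Seq v4 low input kit and a KAPA Hyper Prep kit, per the labels' protocols, neither described there as marking strand. Each deposited value is a signal: the normalised count of 1 gene symbol, made by the authors from reads and 1 factor per library. This reading rests on the values, since 100% are whole multiples, within 0.001 reads, of the library's smallest step. STAR 2.5.1b, HTSeq 0.6.1p1, DESeq2 1.6.3 and mm10 are listed per the submitters' processing notes, with no role or order, and the annotation, filters and strand setting were not given in the sources used here. Division by the step gave 11607780 to 47261246 whole reads per library, and 1 read is worth 0.677 to 2.27 units, the most in CCR6+ replicate 2.

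The main test was limma 3.58.1 (R 4.3.3) on log2(value + 1), two-sided, without covariates, over the 14582 genes that reached 10 in 3 or more libraries, with Benjamini-Hochberg adjustment at 0.05. The log scale with 1 added can understate, overstate or reverse the change of low genes, above all where a library is at 0. EdgeR 4.0.16 and DESeq2 1.42.0 were run on the recovered reads. Limma, edgeR and DESeq2 were also run on simulated counts with known changes. Those counts had the same relative spread for every gene and no library unlike the rest. They therefore cannot show how reliable the calls are in these libraries. The 9 members and all lists were chosen with earlier results of these data known. Named further genes are, per list, the 3 of highest mean and the 2 of smallest p, plus Art2b, chosen after its values were seen. Positions and exonic lengths are those of the GENCODE M21 basic set on mm10, 1-based, and promoter windows are RefSeq's on GRCm38.p6. All pairs of libraries differed by more than sampling noise.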

Additional observations from a re-analysis of the deposited data

Results flagged for a closer look

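The 4 CCR6- libraries were looked at in 40 sets of values (the named pathway genes, the marker sums, the reads, and how many genes were at 0). In 4 sets 1 library lay far from its group, and by chance about 5% of sets would. Distance was taken as the gap to the nearest other library over the whole range. All 4 concern CCR6- replicate 4, and all sets come from the same 4 libraries. They are therefore not independent, and their number cannot be weighed against that 5%. Ada stood at 1030 normalised counts there, against 528 to 578 in the other CCR6- libraries. Adora2a stood at 4782, against 2320 to 2643. P2rx4 stood at 2016, against 1255 to 1361. The sum of the Treg and T cell markers was 144298 in that library, against 194376 to 196041. Groups of 3 libraries, such as the CCR6+ group, were too small for this look.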

How the results depend on the processing

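Over 30 named genes and 22 other settings, 593 of 634 values kept their direction and their side of the threshold, 35 changed sign and 6 passed the threshold, all under DESeq2. For Entpd1, Nt5e, Cd38, Ada, Dpp4 and P2rx7 the sign held in every setting tried. The number of genes called, 0 by limma, was 1 with a pseudocount of 0.5, 2 with one of 8, 2 with a filter on a mean of 100, 1 with TMM scaling, 10 with limma-trend and robust moderation, 36 with arrayWeights, 2 with edgeR, 664 with DESeq2, and without CCR6+ replicate 2 as well, 2 with edgeR and 182 with DESeq2. DESeq2 called 2 members with all libraries and 2 without CCR6+ replicate 2, and 1 further pathway gene, Acpp, in each case. With each library left out in turn limma called 0 genes, and 4 to 5 members did not overlap, beside 16.5% to 37.9% of all genes. That count was 3 with TMM scaling and scaled to the Treg and T cell markers, and 5 with equal library totals and quantile normalization, beside 14.1%, 5.17%, 12.8% and 13.2% of all genes in that order. The log2 difference of Adora2a was 0.35 with arrayWeights, 0.14 with the replicate block, 0.018 scaled to the Treg and T cell markers, 0.27 and 0.28 with edgeR and DESeq2 without CCR6+ replicate 2, and -0.37 to 0.32 with 1 library left out. That of Adora2b was -0.65 with quantile normalization. That of P2rx4 was -0.077 with TMM, -0.14 with arrayWeights, -0.058 with edgeR, -0.20 and -0.18 with edgeR and DESeq2 without CCR6+ replicate 2, and -0.19 to 0.23 with 1 library left out. Alpl had -0.023 and -0.0036 with edgeR and DESeq2 without CCR6+ replicate 2. Slc28a2 had 0.094 with arrayWeights, 0.14 and 0.16 with edgeR and DESeq2 without that library, and -0.34 to 0.14 with 1 left out. Slc29a2 had -0.39 with quantile normalization, and P2ry14 -0.094 with arrayWeights. P2rx5 had 0.21 with a pseudocount of 8, 1.24 with edgeR and 1.41 with DESeq2. With 1 library left out it had -0.97 to 0.84 where it still passed the filter. Prkar1a had 0.068 with quantile normalization, 0.0017 with arrayWeights, 0.029 and 0.047 with edgeR and DESeq2 without CCR6+ replicate 2, and -0.31 to 0.036 with 1 left out. The causes of these changes were not tested. The median log2 difference over all genes, 0.097, was 0.18 with equal library totals, -0.0033 with TMM, -0.084 with quantile normalization and 0.20 scaled to the Treg and T cell markers. The last scaling and DESeq2 without CCR6+ replicate 2 were chosen after the data were seen. Whether libraries of the same replicate number are paired is not stated. Deviations of same-numbered libraries from their group means correlated at -0.13, -0.11 and 0.34. Of the CCR6+ libraries, 1 of 3 correlated best with its own number. With so few libraries, and CCR6+ replicate 2 unlike the rest, these correlations cannot decide the question. With the replicate block 0 genes were called. By construction its log2 differences equalled those without CCR6- replicate 4, which has no CCR6+ library of the same number. The depth limits Adora2b most, with 25 to 91 reads per library.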

Other observations

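The genes whose pattern over the 7 libraries was most like that of Entpd1 and Nt5e were looked up among 12072 genes of a mean of at least 50, by the mean absolute difference of centred log2 values. For Entpd1 these were Zfp764, a zinc finger gene, Orai3, for a calcium channel subunit, and Tdrd3, at differences of 0.048, 0.050 and 0.054, where the median gene lay at 0.36. Zfp764 had 503, 389 and 407 normalised counts in CCR6+ libraries, against 339, 347, 301 and 308 in CCR6- libraries. For Nt5e they were Icam1, for an adhesion molecule, Syngr2 and Wisp1, for a secreted matrix-associated protein, at 0.13, 0.13 and 0.14, where the median gene lay at 0.52. Icam1 had 15428, 6892 and 9782 in CCR6+ libraries, against 8716, 7959, 6059 and 7299 in CCR6- libraries.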
